A study of Mus musculus with 12 samples.

Results

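The results describe 9 transcription factor genes of cultured mouse cardiac fibroblasts: Snai1, Snai2, Twist1, Twist2, Zeb1, Zeb2, Sox9, Runx1 and Runx2. They were taken by gene symbol from a table of 35275 genes, 1 row each, and all 9 passed the filter on low counts that 15150 genes of the table passed. RNA-Seq was performed on 12 libraries, 3 in each of 4 conditions. The design text speaks of independent samples without naming animals, so p values rest on the spread between these cultures, pooled over the 4 conditions. All fibroblasts came from hearts of 12-week-old C57BL/6 mice with a floxed Smad7 gene and were infected at passage 2 for 48 hours at 100 MOI. Controls received a GFP adenovirus per the labels, or an empty one per the study's methods, and so carry the floxed alleles too, although their titles call them wild type, and Smad7-KO cells received a Cre-expressing adenovirus. Cells of each kind were left unstimulated or received 10 ng/ml TGF-β1, for 2 hours by one label and 4 hours by another. The Cre virus and the loss of Smad7 cannot be told apart, since no culture received Cre without floxed Smad7.

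Snail, Twist and Zeb proteins are the classical drivers of epithelial-mesenchymal transition. Snail proteins (Snai1, Snai2) and Zeb proteins are zinc finger repressors that bind E-boxes in genes of epithelial junctions, and Twist proteins are basic helix-loop-helix factors of embryonic mesoderm. Sox9 directs cartilage formation and is expressed by activated fibroblasts, Runx1 is needed for the first blood stem cells and Runx2 for bone, and both Runx proteins bind DNA together with the subunit Cbfb. TGF-β is a well-known inducer of several of these genes, acting through Smad2 and Smad3, and Smad7 is the inhibitory Smad that TGF-β itself induces.

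The sequences before the start of Snai1 and Twist1, which were lower in Smad7-KO cells, and of Zeb2 and Runx1, which were higher, are shown so that both pairs can be read beside their values. Each holds the 250 bases upstream of a RefSeq start in GRCm38.p6, printed 5′ to 3′ on the strand of the gene, with every CANNTG E-box in capitals. The windows are chr2:167537945-167538194 for Snai1, chr12:33957421-33957670 for Twist1, chr2:45117443-45117692 for Zeb2 and chr16:92697330-92697579 for Runx1 (the downstream start), and none overlaps an annotated exon.
Snai1: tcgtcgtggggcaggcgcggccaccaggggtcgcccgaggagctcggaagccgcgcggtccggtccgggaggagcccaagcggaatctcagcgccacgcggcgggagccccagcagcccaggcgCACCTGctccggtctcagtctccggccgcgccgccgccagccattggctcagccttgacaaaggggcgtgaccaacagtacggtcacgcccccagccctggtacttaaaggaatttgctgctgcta
Twist1: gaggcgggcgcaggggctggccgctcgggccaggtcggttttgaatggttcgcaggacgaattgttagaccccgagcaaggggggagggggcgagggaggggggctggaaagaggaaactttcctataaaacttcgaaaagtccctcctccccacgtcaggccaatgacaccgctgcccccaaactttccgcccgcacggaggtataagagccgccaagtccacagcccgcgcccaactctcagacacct
Zeb2: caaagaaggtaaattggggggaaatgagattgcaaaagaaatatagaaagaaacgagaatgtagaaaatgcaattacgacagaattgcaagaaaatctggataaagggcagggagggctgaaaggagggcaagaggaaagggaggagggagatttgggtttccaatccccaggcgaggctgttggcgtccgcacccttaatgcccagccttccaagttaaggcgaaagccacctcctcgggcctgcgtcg
Runx1: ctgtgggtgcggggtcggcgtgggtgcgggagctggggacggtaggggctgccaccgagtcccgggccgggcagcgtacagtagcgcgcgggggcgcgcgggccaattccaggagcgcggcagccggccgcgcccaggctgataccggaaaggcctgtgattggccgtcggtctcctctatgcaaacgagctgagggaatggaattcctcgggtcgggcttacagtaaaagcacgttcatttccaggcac
Both strands were searched for the E-box CANNTG and for CAGGTG, the form of it that Snail and Zeb proteins prefer. The Smad box CAGAC was searched as well, as was the Runx core TGTGGT. Of 32851 RefSeq windows of this length, 66.2% held the E-box, 17.2% its CAGGTG form, 42.2% the Smad box and 14.0% the Runx core. The Snai1 window held 1 E-box, which reads CAGGTG on the other strand, and the Twist1 window held 1 Smad box. None of the searched letters stood in the Zeb2 or Runx1 window, while the window of the upstream Runx1 start, which overlaps an annotated exon and is not shown, held 3 E-boxes. G and C made up 70.0% of the Snai1 window, 62.4% of Twist1, 67.6% of Runx1 and 49.6% of Zeb2, against a median of 52.4% over the windows. Windows of Twist2, of Runx2 and of further Zeb2 starts overlap annotated exons and are not shown. That of Runx2 held 1 E-box and 1 Runx core, and the others held none of the searched letters. RefSeq entries were at hand for 6 of the genes, and not for Snai2, Zeb1 and Sox9.

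In mm10 (GRCm38.p6), Snai1 spans chr2:167538195-167542814 on the plus strand, Snai2 chr16:14705852-14709395 (plus), Twist1 chr12:33957671-33959817 (plus) and Twist2 chr1:91801461-91848028 (plus). Zeb1 spans chr18:5591860-5775467 (plus) and Zeb2 chr2:44983634-45117395 (minus), Sox9 spans chr11:112782224-112787760 (plus), Runx1 chr16:92601466-92826149 (minus) and Runx2 chr17:44495987-44814797 (minus). The values are sums over the whole gene. Snai1, Snai2, Twist1 and Sox9 overlap no other gene of the table, whereas Zeb2 overlaps the antisense gene Zeb2os, counted at 56 to 126 reads, and Runx2 overlaps Supt3, counted at 141 to 293 reads. Twist2, at 15 to 90 reads, overlaps RP23-5H15.1 (2 to 20 reads) and RP23-5H15.2 (0 to 5 reads). Zeb1 overlaps Gm10125 (0 to 18 reads) and Gm16147 (0 to 4), and Runx1 overlaps Gm26626 (0 to 12). Runx2 also overlaps the antisense genes Runx2os1 (1 to 11 reads), Runx2os2 (1 to 21) and Runx2os3 (0). The library kit does not mark strand, so reads of Zeb2 and of Zeb2os cannot be told apart where they overlap, nor those of the other overlapping genes.

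Libraries held 19056916 to 25371321 counts. Smad7 itself, the targeted gene, was lower in every Smad7-KO library than in every control library of the same stimulation, at 74.4 ± 2.94 CPM (counts scaled to library size by TMM, SD, n = 3) in unstimulated controls and 29.4 ± 1.48 in unstimulated Smad7-KO cells. With TGF-β1 it stood at 145.7 ± 4.24 CPM in controls and 76.8 ± 5.89 CPM in Smad7-KO cells, so that stimulated Smad7-KO libraries (70.0 to 80.8 CPM) overlapped unstimulated controls. Smad7-KO is used below as the name of the group. Unstimulated control libraries 2 and 3 stood apart from the others of their group, with an SD of log2 CPM from the other 2 libraries of 0.86 and 0.73, against 0.31 to 0.41 in the remaining 10 libraries. The coefficient of variation that edgeR estimated over all genes was 0.335 in unstimulated controls and 0.0530 in unstimulated Smad7-KO cells. With TGF-β1 it was 0.137 in controls and 0.0998 in Smad7-KO cells. The main fit gave each gene 1 spread for all conditions. Adjusted p values against unstimulated controls thus rest on a smaller spread than that group showed over all genes. For the transcription factor genes named above, called differences against that group, and other values that moved, are given below without either library as well. Values of other single genes are given from all 12 libraries only. Fibroblast markers were present in all libraries (Col1a1, Col3a1, Pdgfra), and 11 macrophage markers were present too, summing to 16390 to 26154 CPM, of which the lysozyme gene Lyz2 alone held 9689 to 14324 CPM as group means. The 10 fibroblast markers summed to 7437 to 11545 CPM, a smaller sum than that of the macrophage markers in every library. CPM are not scaled to gene length, so the 2 sums do not rank the cell types. The cultures held RNA of macrophage genes besides that of fibroblasts. In bulk RNA, fewer cells of a type and less RNA per cell cannot be told apart. Of 6 lymphocyte markers none passed the filter on low counts.

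Between genes, levels can be compared only per length, as FPKM. Averaged over the 12 libraries, Zeb2 was the most abundant member at 32.8 FPKM, followed by Sox9 at 18.4, Runx1 at 13.0, Snai1 at 11.9, Zeb1 at 9.27 and Twist1 at 7.53 FPKM. Runx2 at 3.17 FPKM and Snai2 at 3.12 FPKM were lower, and Twist2 was lowest at 0.737 FPKM. Zeb2 ranged from 15.4 to 49.7 FPKM and Twist2 from 0.297 to 1.87 FPKM, with 15 to 90 reads of Twist2 in a library.

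In unstimulated cells, Smad7-KO cultures held Snai1, Snai2 and Twist1 at 0.45 to 0.53 of their control level, and more Zeb2 and Runx1. These 5 of the 9 genes passed an adjusted p of 0.05 in edgeR's quasi-likelihood test (Benjamini-Hochberg over 15150 genes), where 25.8% of all genes did. Of the members 2 were higher and 3 lower, beside 12.1% higher and 13.7% lower over all genes. The median log2 fold change of the 9 genes was 0.01, beside -0.02 over all genes. The libraries of both groups did not overlap for the same 5 genes, where 41.3% of all genes showed no overlap.

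With TGF-β1, Snai2 and Twist1 were lower and Runx1 was higher in Smad7-KO cells, 3 of the 9 genes, beside 13.0% of all genes (5.72% higher, 7.23% lower). Libraries did not overlap for 6 members there, beside 44.9% of all genes. TGF-β1 raised Snai1, Sox9, Runx1 and Runx2 and lowered Snai2 in controls, 5 of 9 genes beside 8.37% of all genes (5.04% higher, 3.33% lower), with 6 members free of overlap beside 19.8%. In Smad7-KO cells TGF-β1 raised Snai1, Sox9 and Runx2 and lowered Snai2, 4 of 9 genes beside 10.2% of all genes (5.33% higher, 4.90% lower), with 6 members free of overlap beside 39.0%. Each group of libraries enters more than 1 of these comparisons, so they are not independent of each other.

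**Figure D1:**
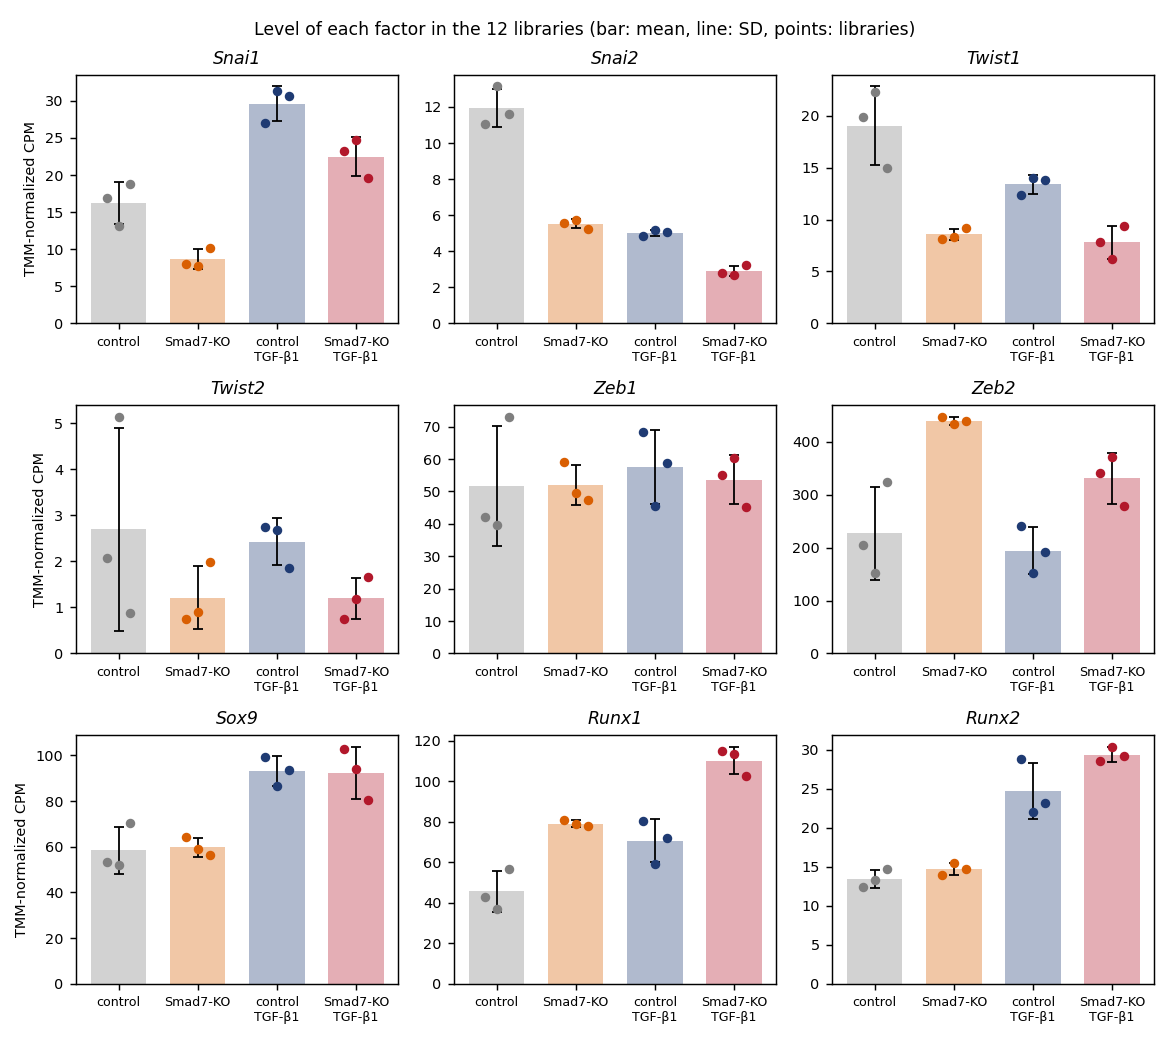
TMM-normalized CPM (vertical axes, from 0) of each gene in 3 libraries of each condition, with bars at the mean, lines for the SD and points for libraries. Snai1 was highest with TGF-β1, Snai2 was highest in unstimulated controls, and Zeb2 was highest in unstimulated Smad7-KO cells, where its 3 libraries sit between 433 and 448 CPM.

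Snai1, which represses E-cadherin and is an early TGF-β target in many cells, stood at 16.9, 13.1 and 18.7 CPM in unstimulated controls and at 8.03, 7.73 and 10.2 CPM in unstimulated Smad7-KO cells. With TGF-β1 it reached 27.0, 31.3 and 30.6 CPM in controls and 23.2, 24.7 and 19.5 CPM in Smad7-KO cells. The 4 conditions were apart from each other, every control library lying above every Smad7-KO library at the same stimulation. Without stimulation Snai1 was lower in Smad7-KO cells by a log2 fold change of -0.91 (SE 0.16, adjusted p = 0.00363), which was -1.04 without control library 2 and -0.79 without control library 3. With TGF-β1 the log2 fold change was -0.40 (95% interval -0.71 to -0.09) and did not pass the test (adjusted p = 0.122), although the libraries did not overlap, and it passed in 3 of 21 alternatives. TGF-β1 raised Snai1 by 0.87 in controls (SE 0.16, adjusted p = 0.00491) and by 1.38 in Smad7-KO cells (SE 0.16, adjusted p = 2.04e-04), on the log2 scale. The rise in controls was 0.73 without control library 2 and 0.98 without control library 3. The difference between both responses was 0.51 (95% interval 0.07 to 0.96), with an unadjusted p of 0.0444 and an adjusted p of 0.98, and was not called.

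Snai2, also known as Slug, a repressor of the same family that neural crest cells use to migrate, behaved otherwise under TGF-β1. It stood at 11.1, 13.1 and 11.6 CPM in unstimulated controls and at 4.85, 5.17 and 5.05 CPM in controls with TGF-β1. In Smad7-KO cells it stood at 5.55, 5.75 and 5.25 CPM without and at 2.79, 2.67 and 3.21 CPM with TGF-β1. Snai2 was therefore highest in unstimulated controls and lowest in stimulated Smad7-KO cells, and no neighbouring conditions overlapped in this order. Smad7-KO cells had less Snai2 without stimulation (log2 fold change -1.11, SE 0.13, adjusted p = 3.13e-04) and with TGF-β1 (-0.80, SE 0.14, adjusted p = 0.00342). TGF-β1 lowered it in controls (-1.25, SE 0.13, adjusted p = 9.47e-05) and in Smad7-KO cells (-0.93, SE 0.14, adjusted p = 8.55e-04). All 4 of these calls held under each of 21 alternatives, among them leaving out either of the control libraries that stood apart. Reads were few, 59 to 275 in a library.

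The opposite course of both Snail genes under TGF-β1 showed in their ratio within a library. Snai1 over Snai2, as FPKM, was 1.73 ± 0.42 in unstimulated controls and 7.39 ± 0.36 in controls with TGF-β1 (SD, n = 3). In Smad7-KO cells the ratio was 1.98 ± 0.40 without and 9.88 ± 2.04 with TGF-β1. The stimulated libraries lay above all unstimulated ones in controls and in Smad7-KO cells, an exact permutation p of 0.1 each (two-sided), the smallest that 3 libraries against 3 allow, and 0.16 after adjustment over 16 comparisons of ratios. Without stimulation the ratio overlapped between Smad7-KO and control libraries (exact p = 0.6), both genes being lower in Smad7-KO cells.

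**Figure D2:**
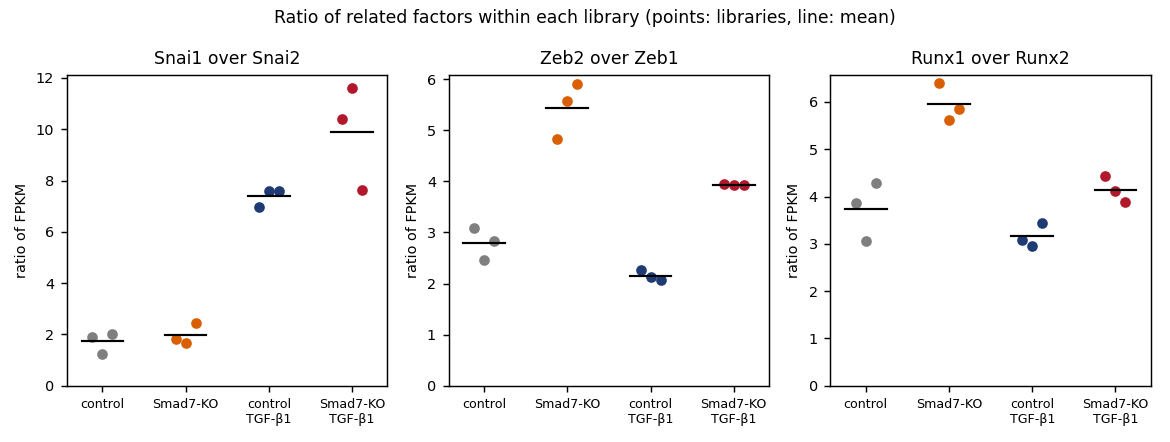
Ratio of FPKM (vertical axes, from 0) of Snai1 over Snai2, Zeb2 over Zeb1 and Runx1 over Runx2 in each library, with lines at the mean of 3 libraries. The Snai1 ratio rises from between 1.25 and 2.43 to between 6.97 and 11.6 with TGF-β1, and the Zeb2 ratio is higher in Smad7-KO than in control libraries at either stimulation.

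Twist1, a mesoderm factor whose loss in humans disturbs the closure of skull sutures, stood at 19.9, 22.3 and 14.9 CPM in unstimulated controls. Unstimulated Smad7-KO libraries held 8.18, 8.37 and 9.15 CPM, all below the controls. With TGF-β1 the values were 12.3, 14.0 and 13.8 CPM in controls and 7.82, 6.20 and 9.39 CPM in Smad7-KO cells, again without overlap. The log2 fold change between Smad7-KO and control cells was -1.15 without stimulation (SE 0.18, adjusted p = 0.00163), -1.02 without control library 2 and -1.30 without control library 3. With TGF-β1 it was -0.78 (SE 0.18, adjusted p = 0.0152), and this call was lost when control library 2 or 3 or Smad7-KO library 1 or 2 of the stimulated cells was left out (adjusted p of 0.0534 to 0.0707). In controls the TGF-β1 libraries lay below the unstimulated ones, with a log2 fold change of -0.51 that did not pass the test (adjusted p = 0.109), and was -0.38 without control library 2 (adjusted p = 0.197) and -0.66, which passed, without control library 3 (adjusted p = 0.0151). In Smad7-KO cells the log2 fold change with TGF-β1 was -0.14 (95% interval -0.49 to 0.22), and the libraries overlapped.

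Twist2, the other Twist gene, was called in no comparison. It stood at 2.06, 5.14 and 0.886 CPM in unstimulated controls, with control library 2 highest of all 12 libraries and control library 3 among the lowest. Smad7-KO libraries ranged from 0.743 to 2.00 CPM without and from 0.758 to 1.65 CPM with TGF-β1, and controls with TGF-β1 from 1.85 to 2.75 CPM. The stimulated controls lay above the stimulated Smad7-KO libraries, with a log2 fold change of -1.03 (95% interval -2.15 to 0.09, adjusted p = 0.255). It passed when the fit used only these 6 libraries, with an adjusted p of 0.0332 by edgeR and 0.0167 by DESeq2. Without stimulation the log2 fold change of -1.11 became -0.26 without control library 2 and -1.54, which passed the test (adjusted p = 0.0178), without control library 3. The ratio of Twist1 over Twist2 overlapped between groups in all 4 comparisons, with means of 8.96 to 16.1.

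Zeb2, a zinc finger factor mutated in Mowat-Wilson syndrome that binds Smad proteins and is also active in macrophages, was higher in Smad7-KO cells. Unstimulated controls held 205, 153 and 324 CPM, and unstimulated Smad7-KO cells 448, 433 and 439 CPM. With TGF-β1 controls held 241, 151 and 191 CPM and Smad7-KO cells 341, 372 and 279 CPM. Every Smad7-KO library lay above every control library at the same stimulation. Without stimulation the log2 fold change was 0.95 (SE 0.25, adjusted p = 0.0196), 0.74 without control library 2 and 1.30 without control library 3, and called in both. The call was lost without control library 1 (adjusted p = 0.0631) and without any 1 of the 3 Smad7-KO libraries (0.0566 to 0.0595). With TGF-β1 the log2 fold change was 0.77 (SE 0.24) and did not pass the test (adjusted p = 0.0616), but did in 6 of 21 alternatives. TGF-β1 itself moved Zeb2 by -0.22 in controls and by -0.41 in Smad7-KO cells, neither called although the Smad7-KO libraries did not overlap, and the control value was -0.45 without control library 2 and 0.12 without control library 3. In Smad7-KO cells it passed in 3 of 21 alternatives.

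Zeb1, the other Zeb gene, had a log2 fold change of 0.01 (95% interval -0.44 to 0.46) between unstimulated Smad7-KO and control cells and of -0.10 (-0.55 to 0.35) with TGF-β1. Its levels were 42.3, 39.6 and 73.1 CPM in unstimulated controls and 59.1, 49.5 and 47.4 CPM in unstimulated Smad7-KO cells. With TGF-β1 it ranged from 45.5 to 68.2 CPM in controls and from 45.3 to 60.3 CPM in Smad7-KO cells, so that all conditions overlapped. The ratio of Zeb2 over Zeb1 within a library was 2.79 ± 0.32 in unstimulated controls and 5.43 ± 0.55 in unstimulated Smad7-KO cells. With TGF-β1 it was 2.15 ± 0.0952 in controls and 3.93 ± 0.0130 in Smad7-KO cells. The groups did not overlap in any of these 4 comparisons (exact permutation p = 0.1, adjusted 0.16), including the lower ratio with TGF-β1. Both genes stood highest among unstimulated controls in library 3.

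Sox9 rose with TGF-β1, and no difference between Smad7-KO and control cells was called. It stood at 53.2, 51.9 and 70.3 CPM in unstimulated controls and at 64.4, 58.8 and 56.2 CPM in unstimulated Smad7-KO cells. With TGF-β1 it reached 99.4, 86.5 and 93.5 CPM in controls and 103, 94.1 and 80.3 CPM in Smad7-KO cells, all above every unstimulated library. The rise was 0.67 on the log2 scale in controls (SE 0.14, adjusted p = 0.00951), 0.59 without control library 2 and 0.83 without control library 3. In Smad7-KO cells the rise was 0.63 (SE 0.14, adjusted p = 0.012), a call lost when Smad7-KO library 2 or 3 of the unstimulated or library 1 of the stimulated cells was left out (adjusted p of 0.056 to 0.0662). Smad7-KO and control cells differed by 0.03 (95% interval -0.24 to 0.30) without and by -0.01 (-0.28 to 0.26) with TGF-β1.

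Runx1 was higher in Smad7-KO cells and rose with TGF-β1 in controls, where the call depended on single libraries. Unstimulated controls held 43.1, 36.9 and 56.9 CPM and unstimulated Smad7-KO cells 80.9, 78.8 and 77.7 CPM. With TGF-β1 controls held 80.4, 59.3 and 72.1 CPM and Smad7-KO cells 115, 114 and 102 CPM, the highest of all libraries. Unstimulated Smad7-KO cells and stimulated controls overlapped. The log2 fold change of Smad7-KO against control cells was 0.79 without stimulation (SE 0.16, adjusted p = 0.00591), 0.67 without control library 2 and 0.99 without control library 3. With TGF-β1 it was 0.64 (SE 0.16, adjusted p = 0.0197), a call lost without library 2 or 3 of the stimulated controls and without library 1 or 2 of the stimulated Smad7-KO cells (adjusted p of 0.061 to 0.084). TGF-β1 raised Runx1 by 0.63 in controls (SE 0.16, adjusted p = 0.0273), a call that was lost without unstimulated control library 1 or stimulated control library 1 or 3 (0.0985 to 0.124). The value was 0.50 without unstimulated control library 2 and 0.82 without unstimulated control library 3, called in both. In Smad7-KO cells the log2 fold change was 0.48 (95% interval 0.17 to 0.78), which did not pass (adjusted p = 0.0804) although the libraries did not overlap, and it passed in 6 of 21 alternatives.

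Runx2, the master factor of bone-forming cells, rose with TGF-β1. It stood at 12.3, 13.3 and 14.6 CPM in unstimulated controls and at 28.7, 22.0 and 23.1 CPM in controls with TGF-β1. Smad7-KO cells held 13.9, 15.5 and 14.7 CPM without and 28.5, 30.4 and 29.2 CPM with TGF-β1. The stimulated libraries lay above the unstimulated ones throughout. The log2 fold change was 0.88 in controls (SE 0.12, adjusted p = 7.61e-04) and 1.00 in Smad7-KO cells (SE 0.12, adjusted p = 2.49e-04), and both calls held under each of 21 alternatives. In controls it was 0.87 without control library 2 and 0.95 without control library 3. Between Smad7-KO and control cells Runx2 differed by 0.13 (95% interval -0.11 to 0.37) without and by 0.25 (0.02 to 0.49, adjusted p = 0.192) with TGF-β1. The latter interval leaves out 0 although the unadjusted p of edgeR's F test was 0.0597, since intervals were taken from the normal distribution. The ratio of Runx1 over Runx2 was 3.74 ± 0.62 in unstimulated controls and 5.96 ± 0.41 in unstimulated Smad7-KO cells. With TGF-β1 it was 3.16 ± 0.25 in controls and 4.15 ± 0.28 in Smad7-KO cells, without overlap of Smad7-KO and control libraries at either stimulation (exact permutation p = 0.1, adjusted 0.16).

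**Figure D3:**
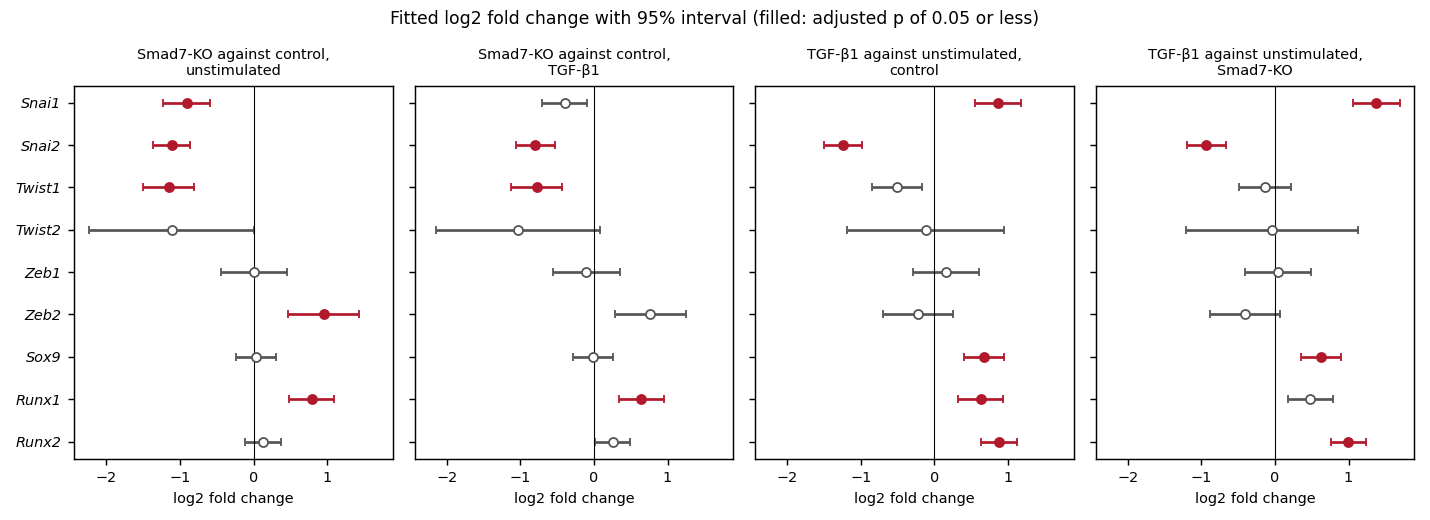
Fitted log2 fold change (horizontal axes) of each gene in 4 comparisons, with 95% intervals and filled points where the adjusted p was 0.05 or less. Snai2 lies left of 0 in all 4 panels, at -1.11, -0.80, -1.25 and -0.93, and Runx2 lies right of 0 with TGF-β1, at 0.88 and 1.00.

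Whether the response to TGF-β1 differed between Smad7-KO and control cells was tested by the interaction. No member was called, where 0.0198% of all genes (3 genes) were, and edgeR gave an unadjusted p under 0.05 for 1 member, Snai1, and for 392 of all genes. No other tool or setting that was run called a member. Intervals were wide beside the effects. That of Runx1 ran from -0.58 to 0.28 and that of Zeb2 from -0.86 to 0.49.

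Several values moved along with these results. By the gene length used for FPKM, the members that were higher in Smad7-KO cells are long and those that were lower are short. Zeb2 with 9113 bases stood at the 97.3rd percentile of length among the genes tested and Runx1 at the 87.8th. Snai1 stood at the 19.6th, Twist1 at the 19.5th and Snai2 at the 28.6th. Zeb1 at the 87.5th and Sox9 at the 70.5th had log2 fold changes of 0.01 and 0.03 between unstimulated cells. With a smooth trend on gene length taken out of each library, all 5 calls between unstimulated cells held at smaller size, with log2 fold changes of 0.52 for Zeb2, 0.49 for Runx1, -0.66 for Snai1, -0.94 for Snai2 and -0.86 for Twist1. In that setting Zeb2 was also called higher in Smad7-KO than in control cells with TGF-β1 (0.52, adjusted p = 0.00028), and lower with TGF-β1 in controls (-0.38, adjusted p = 0.00258) and in Smad7-KO cells (-0.38, adjusted p = 0.00225). Runx2, at the 90.6th percentile, turned from 0.13 to -0.24 between unstimulated cells, not called. Of 11 macrophage markers, 6 were higher and none lower in unstimulated Smad7-KO cells, and 5 were higher with TGF-β1. Over all genes 12.1% were higher and 13.7% lower without stimulation, and 5.72% higher and 7.23% lower with TGF-β1. Among the higher markers were the mannose receptor Mrc1 (0.74 and 0.98 on the log2 scale) and Adgre1, the F4/80 antigen (0.64 and 0.60). The count of 6 fell to 3 without unstimulated Smad7-KO library 2 and ranged from 0 to 9 over other tools and settings, and the count of 5 fell to 2 without stimulated control library 2 and ranged from 2 to 9. Their summed level ranged from 16499 to 26154 CPM in unstimulated controls and from 23348 to 25667 CPM in unstimulated Smad7-KO cells (ratio of means 1.16, exact permutation p = 0.4). With TGF-β1 it ranged from 16390 to 19065 CPM in controls and from 22630 to 25563 CPM in Smad7-KO cells (1.33, exact p = 0.1), with no marker at 0, and its part in the higher Zeb2 and Runx1 was not tested. Endothelial markers stood at 0.35 of control without stimulation, at 612 to 651 CPM in controls and 211 to 229 CPM in Smad7-KO cells (exact p = 0.1), with 7 of 10 tested markers lower, led by Emcn at -5.02, and 1 higher. Epicardial markers stood at 0.76 of control (exact p = 0.1), 4 of 8 lower, led by Upk1b at -1.20. The part of these markers in the lower Snai1, Snai2 and Twist1 was not tested. Fibroblast markers summed to 0.999 of control without and 0.896 with TGF-β1 (exact p = 1.0 and 0.1), with Tcf21 (-1.30) and Thy1 (-1.55) lower and Dcn (0.28) higher in unstimulated cells. Cardiomyocyte markers, led by Tnnt2 (-1.37), stood at 18.8 to 78.0 CPM in unstimulated libraries. Their sum in unstimulated Smad7-KO cells was 0.418 of control (exact p = 0.1). Of 5 tested cardiomyocyte markers 2 were lower and none higher, although their median log2 fold change was 1.09. Myh6, Myl2 and Pln had higher means in unstimulated Smad7-KO cells and were not called. Smooth muscle markers, with Cspg4 at -1.79, stood at 23.3 to 64.0 CPM in unstimulated libraries. Schwann cell markers, with S100b at -2.48 and Mbp at 0.94, stood at up to 52.4 CPM there. Nppa, Foxd3 and Cd3e were at 0 in all 3 libraries of at least 1 group.

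Among related transcription factors, 6 of 16 tested genes were lower and none higher in unstimulated Smad7-KO cells, and 6 of 16 were lower with TGF-β1. Over all genes 25.8% and 13.0% were called in these comparisons, and 8.37% and 10.2% for TGF-β1 in controls and in Smad7-KO cells. The median log2 fold change of this list was -0.22 without and -0.55 with TGF-β1, beside -0.02 over all genes in either. Foxc1, a forkhead factor of heart and eye development, fell from 20.2 ± 1.07 to 7.22 ± 0.745 CPM (log2 fold change -1.48) and by 1.35 with TGF-β1. Foxc2, its paralog and a driver of mesenchymal transition, fell from 11.9 ± 1.16 to 4.28 ± 0.171 CPM and was raised by TGF-β1 in controls (1.68) and in Smad7-KO cells (1.80). Tcf21, a factor of resident cardiac fibroblasts, fell from 138 ± 36.1 to 56.2 ± 0.532 CPM, and Hand2, which patterns the heart tube, from 28.6 ± 8.65 to 12.2 ± 1.79 CPM. With TGF-β1, 4 of 16 factors rose in controls and 2 in Smad7-KO cells, among them Sox8, a close relative of Sox9 (1.82 and 1.22), and Runx3 in controls (1.03, adjusted p = 0.0494), whose value in Smad7-KO cells was 0.87 (adjusted p = 0.089). Prrx1, which marks mesenchymal progenitors, fell with TGF-β1 in controls (-0.52) and in Smad7-KO cells (-0.68). Leaving out 1 library gave 4 to 7 called factors between unstimulated cells. With TGF-β1 the count of 6 fell to 3 without stimulated Smad7-KO library 1. For TGF-β1 in controls the 5 called factors became 2 without unstimulated Smad7-KO library 1 and 7 without unstimulated control library 3, and in Smad7-KO cells the 3 became 2 without unstimulated Smad7-KO library 1 and 6 without unstimulated control library 2.

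Id proteins, which pair with the partners of Twist and keep them from DNA, led the list of partners and cofactors. Id1 fell from 92.4 ± 53.6 CPM in unstimulated controls by 3.07 on the log2 scale in unstimulated Smad7-KO cells (adjusted p = 0.000314), Id3 from 241 ± 114 to 46.2 ± 3.51 CPM (-2.39) and Id2 from 93.6 ± 29.2 to 47.3 ± 4.26 CPM (-0.98). Of 25 genes of the list, 6 were higher and 6 lower there, with a median of 0.13, where 25.8% of all genes were called. The count fell to 3 without Smad7-KO library 2 and rose to 16 without control library 3. Ep300, a histone acetyltransferase, was higher (1.07), at 79.4 ± 43.9 and 167 ± 9.90 CPM. With TGF-β1, Id3 (-1.04), the Snail corepressor Ajuba (-0.49) and the Groucho protein Tle2 (-0.46) were lower and Tle3 (0.35) higher in Smad7-KO cells. These were 4 of 25 genes, beside 13.0% of all genes. The count was 1 without stimulated control library 2 and 11 without unstimulated control library 2. TGF-β1 raised Ajuba (0.64 and 0.43) and Tle1 (0.67 and 0.70) in controls and in Smad7-KO cells and lowered Runx1t1, a corepressor of Runx proteins (-1.17 and -1.40). Id3 fell with TGF-β1 in controls (-1.24) and Id2 rose in Smad7-KO cells (1.66).

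Of 26 genes found in the table that Snail and Zeb proteins repress in epithelia, 12 passed the filter on low counts. In unstimulated Smad7-KO cells 2 of the 12 were higher, the tight junction protein Tjp3 (0.98) and the protease St14 (0.69), and 5 were lower, among them the desmosomal Pkp2 (-1.80) and Dsp (-0.99). Pkp2 fell from 8.30 ± 0.281 to 2.38 ± 0.299 CPM and Tjp3 rose from 3.39 ± 0.299 to 6.67 ± 1.77 CPM. With TGF-β1, 1 of the 12 was higher in Smad7-KO cells, Tjp3 (0.72), and 2 were lower, among them Pkp2 (-1.68), with a median of -0.78. TGF-β1 in controls gave 0 calls by edgeR, with 4 genes at an unadjusted p under 0.05. At most 2 were called by another tool or setting, and 4 without unstimulated control library 3. In Smad7-KO cells 1 gene rose with TGF-β1, Dsp (1.44), and 1 fell. The median of the list was -0.84 between unstimulated Smad7-KO and control cells. The count of 7 called there ranged from 5 to 9 with 1 library left out and from 2 to 9 over other tools and settings. Over all genes 25.8% were called there and 13.0% between stimulated Smad7-KO and control cells. For TGF-β1 in controls and in Smad7-KO cells 8.37% and 10.2% of all genes were called.

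Of 16 mesenchymal genes, 6 were lower and 1 higher in unstimulated Smad7-KO cells, with a median of -0.27. Over all genes 13.7% were lower and 12.1% higher there, and 7.23% were lower with TGF-β1. S100a4, a fibroblast-associated calcium-binding protein, was at 1208 ± 652 and 509 ± 18.5 CPM (-1.25), the smooth muscle protein Tagln was lower by -0.94 and the intermediate filament Vim by -0.75. Tnc, a matricellular glycoprotein, was higher (0.88). The count fell to 2 without unstimulated control library 1. With TGF-β1, 3 of the 16 were lower in Smad7-KO cells, the gelatinase Mmp2 (-0.77), Vim (-0.55) and Sparc (-0.48), or 10 without unstimulated control library 2 and 1 without unstimulated Smad7-KO library 1. TGF-β1 raised the integrin chain Itga5 in controls (1.15) and in Smad7-KO cells (1.24), and Postn, or periostin, in Smad7-KO cells (0.63).

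Among 12 tested cartilage genes of Sox9, Col2a1, the collagen of hyaline cartilage, was lower in Smad7-KO cells without stimulation (2.46 ± 1.17 CPM in controls, 0.612 ± 0.261 CPM in Smad7-KO cells) and with TGF-β1 (-2.20). In unstimulated cells 2 of the 12 were higher, among them Trps1 (0.83), and 2 lower, where 25.8% of all genes were called. This count of 4 fell to 0 without Smad7-KO library 1 and to 2 without control library 2. Col11a1 was lower with TGF-β1 (-0.86). Comp, a cartilage matrix protein, rose with TGF-β1 in controls (1.22) and in Smad7-KO cells (1.29), while Sox9 rose by 0.67 and 0.63.

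Bone genes of Runx2 passed the filter in 9 of 19 cases, and the osteocalcin gene Bglap and Sp7 did not. Mmp13, a collagenase and Runx2 target of bone, fell with TGF-β1 from 17.8 to 3.58 CPM in controls (-2.31) and from 17.1 to 3.66 CPM in Smad7-KO cells (-2.22), where Runx2 rose. Tnfrsf11b, the osteoprotegerin gene, rose from 50.7 to 161 CPM in controls (1.67) and from 45.3 to 119 CPM in Smad7-KO cells (1.40), and was lower in stimulated Smad7-KO cells than in stimulated controls (-0.43). Spp1, or osteopontin, which macrophages express too, was higher in Smad7-KO cells without (0.91) and with TGF-β1 (0.90), the latter at an adjusted p of 0.0425. Vdr, the vitamin D receptor, was higher (0.77) and Atf4 lower (-0.76) in unstimulated Smad7-KO cells, and TGF-β1 raised Vdr in controls (0.87). In all, 3 of 9 were higher and 1 lower in unstimulated Smad7-KO cells, and 1 of 9 each with TGF-β1. The count of 4 ranged from 3 to 5 with 1 library left out and from 0 to 5 over other tools and settings. With TGF-β1 the count of 2 fell to 0 without unstimulated control library 1. Over all genes 25.8% and 13.0% were called in these comparisons.

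Of 14 enzymes that degrade or modify these factors, Wwp1, a ubiquitin ligase for Runx2, was higher in unstimulated Smad7-KO cells (0.92) and lower with TGF-β1 in Smad7-KO cells (-1.05), and Stub1 was lower in unstimulated Smad7-KO cells (-0.78). Smurf1, a ligase for Smad and Runx proteins that Smad7 recruits, rose with TGF-β1 in controls (0.84). It was the only 1 of the 14 called there, where 8.37% of all genes were. This count fell to 0 without unstimulated control library 1 and ranged from 0 to 4 over other tools and settings. Between stimulated Smad7-KO and control cells edgeR called 0 of the 14, with 1 at an unadjusted p under 0.05, and other tools or settings called at most 1. Over all genes 25.8% were called between unstimulated and 13.0% between stimulated Smad7-KO and control cells.

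**Figure D4:**
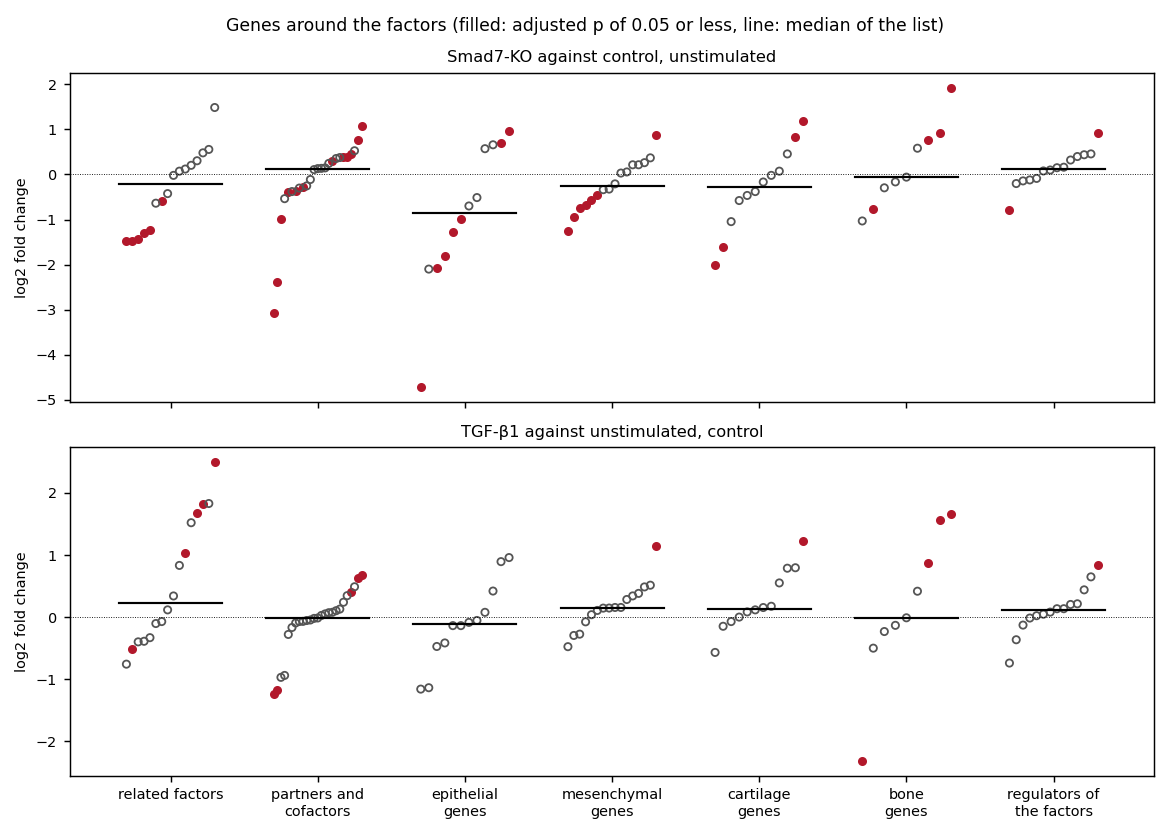
Log2 fold change (vertical axes) of the tested genes in 7 lists, for Smad7-KO against control in unstimulated cells (top) and for TGF-β1 in controls (bottom), with filled points where the adjusted p was 0.05 or less and lines at the median of a list. Id1 and Id3 lie at -3.07 and -2.39 in the upper panel, and Mmp13 at -2.31 in the lower panel.

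Over the 12 libraries, the genes whose log2 CPM followed a member most closely were found by Pearson's r, as a description with no test, since the points share 4 conditions. Snai1 was followed by Mfap4, Bag3 and Pde2a (r of 0.968 to 0.971), Snai2 by Atoh8, Ddit4l and Cdc42ep3 (0.977 to 0.988), and Twist1 by Pink1, Ptp4a3 and Eef1a2 (0.983 to 0.987). Zeb2 was followed by Synj1, Cltc and Ankrd12 (0.995 to 0.996), Sox9 by Ncam1, Gtf2e1 and Pdgfrb (0.970 to 0.977), Runx1 by Fry, Abr and Lonrf3 (0.993 to 0.996), and Runx2 by Il17ra, Sema4c and Skil (0.985 to 0.989). Skil encodes SnoN, a Smad corepressor and TGF-β target.

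**Figure D5:**
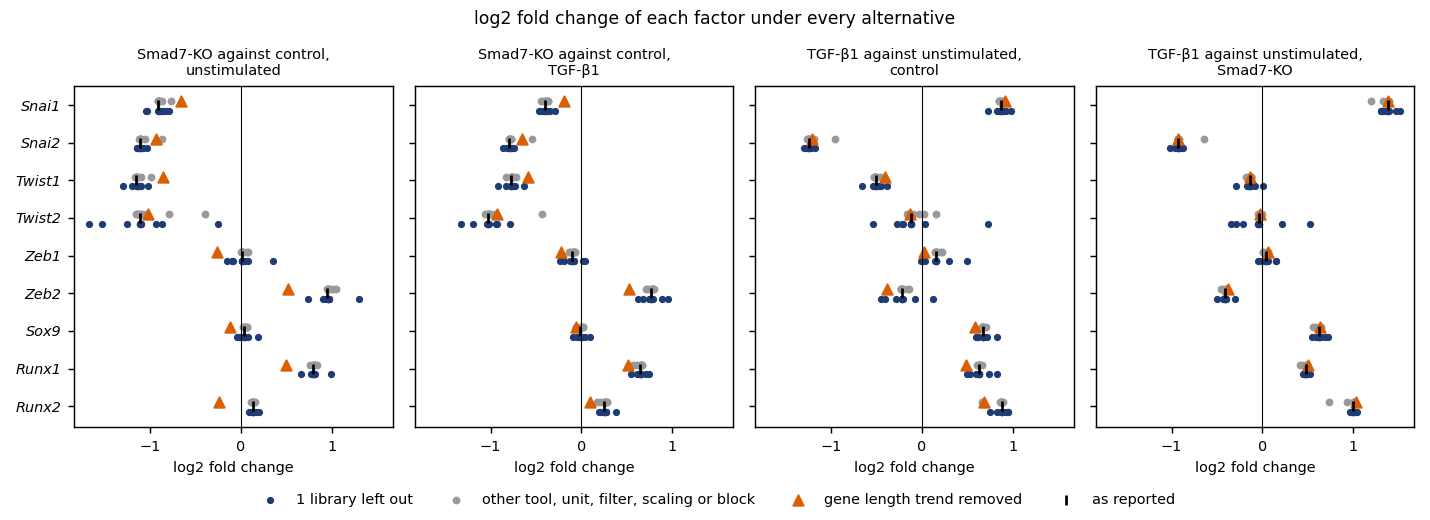
Log2 fold change (horizontal axes) of each gene in 4 comparisons as reported, with 1 library left out, with the trend on gene length removed, and with another tool, unit, filter, scaling or replicate block. Snai2 keeps its side of 0 in all 4 panels, while Zeb2 between unstimulated cells ranges from 0.52 to 1.30.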

How the data were processed

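Poly-A RNA was sequenced from 12 cultures as 100-bp paired reads. The deposited table holds whole-number read counts per gene, not normalized, and FPKM that the authors computed. In all 35275 genes the FPKM equalled count over gene length and library total (relative tolerance 1e-06). Per the submitters' notes, the tools named were CASAVA, TopHat2 2.0, Cufflinks 2.1.1 and HTSeq 0.6.1 with mm10; strand settings are not given in the sources used here. No column was without a sample.

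Counts were filtered with filterByExpr (minimum count 10), scaled by TMM and fitted with edgeR 4.0.16 (quasi-likelihood, robust, all 12 libraries, R 4.3.3). Benjamini-Hochberg adjusted p values of 0.05 or less were called. SE come from the coefficient and its F statistic. The 95% intervals use the normal quantile times the SE, so they are narrower than the F test implies, and calls rest on the test. DESeq2 1.42.0 and limma 3.58.1 were alternatives. Fits on all libraries, apart from that without the filter, were run on simulated counts for Smad7-KO against control in unstimulated cells only. The simulation gave a gene the same spread in all conditions. Fits on fewer libraries and the interaction were not simulated. Marker sums and ratios were compared by exact permutation. Promoter windows are RefSeq's. The genes and lists were chosen with earlier results of these data known. Named from each list and comparison were up to 4 called genes of largest change whose mean log2 CPM reached 1, and for each called member the 3 genes of highest correlation. One list gene, Pals1, was not matched to the table. No replicate pair agreed within sampling noise. The precision of a level is limited by its reads, and SDs cover spread between cultures. One gene that this rule names is not reported here.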

Additional observations from a re-analysis of the deposited data

How the results depend on the processing

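Each of 927 values of a member was recomputed under an alternative, and 828 kept call and direction, 24 lost the call, 25 gained one and 50, none of them called, changed direction. The member counts were 5, 3, 5 and 4 in the 4 comparisons of 2 groups (Smad7-KO against control unstimulated and with TGF-β1, then TGF-β1 in controls and in Smad7-KO cells), and 0 for the interaction. With 1 library left out they ranged from 4 to 6, from 1 to 5, from 4 to 6 and from 3 to 5, and stayed at 0 for the interaction. On only the libraries of the comparison, edgeR called 3, 6, 2 and 6 members and DESeq2 called 5, 6, 4 and 6. In the fourth comparison edgeR gained Zeb2 (adjusted p = 0.00305) and Runx1 (5.58e-05). In those edgeR fits Zeb2 (adjusted p = 0.0847) and Runx1 (0.0515) between unstimulated cells, and Snai1 (0.06), Sox9 (0.105) and Runx1 (0.231) for TGF-β1 in controls, were not called; Runx1 for TGF-β1 in controls was not called by DESeq2 on those libraries either (0.0904). The causes were not tested.

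With the replicate number as a block the counts were 5, 3, 5 and 4. Same-numbered libraries deviated together with r over 0.1 in 1 of 18 pairs, although 8 of 12 libraries correlated best with their own number. The study named no pairing, and the main fit used none. Whether the numbers pair the cultures was not settled. Over all genes 3907, 1962, 1268 and 1550 were called, ranging over the alternatives from 660 to 7979, 883 to 4849, 391 to 3449 and 985 to 3792, and for the interaction 3, ranging from 0 to 16. Of the genes called between Smad7-KO and control cells with TGF-β1, 44.1% were higher, 55.7% with the length trend removed, and 33.2% and 31.6% by limma on FPKM with a pseudocount of 1 or 0.1. For TGF-β1 in controls 60.2% were higher, and 49.2% with the length trend removed. No alternative moved the median of all genes by over 0.1 on the log2 scale.

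Direction changed with the length trend removed for Zeb1 (-0.27), Sox9 (-0.12) and Runx2 (-0.24) between unstimulated cells, and in the interaction for Runx1 (0.0225), Sox9 (0.0590), Zeb1 (0.0400) and Zeb2 (0.0031). Sox9 between Smad7-KO and control cells with TGF-β1 turned to 0.0152 with DESeq2 size factors, 0.0153 with DESeq2 and 0.00086 with DESeq2 on its own libraries. Twist2 turned with limma to 0.0270 and 0.16 for TGF-β1 in controls, 0.00026 in Smad7-KO cells and -0.0373 and -0.16 in the interaction, and to -0.0170 there with the replicate block. With 1 library left out, values on both sides of 0 were found between unstimulated cells for Zeb1 (-0.15 to 0.35) and Sox9 (-0.0437 to 0.19), and between Smad7-KO and control cells with TGF-β1 for Zeb1 (-0.23 to 0.0408) and Sox9 (-0.0948 to 0.0920). For TGF-β1 in controls this held for Twist2 (-0.54 to 0.73), Zeb1 (-0.0072 to 0.49) and Zeb2 (-0.45 to 0.12), and in Smad7-KO cells for Twist1 (-0.29 to 0.0059), Twist2 (-0.34 to 0.52) and Zeb1 (-0.0480 to 0.15). In the interaction it held for Sox9 (-0.20 to 0.0503), Twist2 (-0.76 to 0.64), Zeb1 (-0.45 to 0.0637) and Zeb2 (-0.53 to 0.0466). Twist2 was counted at 15 to 90 reads, with a CV of 81.5% among unstimulated controls.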
